A study of Danio rerio with 14 samples.

Results

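The 38 genes described here carry names given to factors that build ribosomes. They are the genes on the array whose symbol, case ignored, begins with utp, nop, noc, rrp, gnl or nol and goes on with a digit, with nol3 and the nol4 genes left out because their products have other roles. They were found among 20908 genes with a symbol of their own, through 46 probe sets, and the probe set with the highest mean stood for a gene. The rule used names only and no measured value, but it was set with earlier results of these data known.

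Ribosomes are assembled in the nucleolus, where RNA polymerase I copies the ribosomal genes into a long precursor. The small subunit processome, in which UTP proteins form the modules UTP-A and UTP-B, gathers on the precursor while it is still being made and cuts out the small subunit RNA, and further proteins, many of them named NOP, NOC, RRP or GNL, matures the large subunit. Small nucleolar ribonucleoproteins (snoRNPs) modify the RNA. The genes of these factors are transcribed together in growing and dividing cells, and their mRNA falls in starved or stressed cells of yeast and mammals. Most roles named below come from yeast and human proteins.

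Liver RNA of zebrafish was measured on 14 ZebGene arrays, whose values are log2 levels per probe set after robust multi-array averaging (RMA), so that a difference of 1 is a 2-fold change. The transgenic fish carried HBx (the X protein of hepatitis B virus) and Src (a tyrosine kinase) together, Src alone or HBx alone, each driven in hepatocytes by the fabp10a promoter, and all these lines also carried a p53 mutation. They are written HBx,Src(p53-), Src(p53-) and HBx(p53-), and WT fish of the AB strain carried none of these changes, so that a transgene and the p53 mutation cannot be told apart against WT. Fish were 3 months old when feeding began and were fed for 8 weeks. For overfed fish (DIO) the daily amount of Artemia was raised 12-fold, to 3 feedings of 2 mL. Fish on high fat (FAT) received 0.22 g of a high fat food 3 times a day beside the normal 0.5 mL of Artemia, and normal diet fish (NOR) received that 0.5 mL 1 time a day. There were 2 arrays each of HBx,Src(p53-) overfed, HBx,Src(p53-) normal and WT normal fish, 1 array for each of the 8 other groups, and no high fat array for HBx,Src(p53-). Overfed and high fat arrays together are called the obesity diet.

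Each pair of arrays correlated at 0.92 to 0.97 over all genes, and the median over all genes was 3.02 to 3.28 on every array. Hepatocyte markers, 17 genes such as fabp10a, averaged 11.47 to 12.18, a high mean on every array. Among them, serpina1 was 5.41 on the overfed WT array, against 10.24 to 12.32 on the others. The study's description counts as many microarray fish as there are arrays, so each array was taken as a single fish, and p-values measure the spread among fish together with that of the assay. For the diet and genotype comparisons the overfed and high fat arrays of a line formed a single cell, so the difference between these feeding methods also enters that spread. In the model with additive terms, differences between lines in the diet change enter it. In whole liver RNA, fewer cells of a type and less RNA per cell cannot be told apart. Across all 11 comparisons tested with limma, 0 of the 38 genes had an adjusted p under 0.05, so the verbs of change are not used for them and each value below is given as a higher or lower level. Counts of genes at an unadjusted p under 0.05 have no share of all genes beside them, so no excess is read from them. A background after a count of called genes refers to adjusted p alone.

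The log2 means of the 38 genes over the 14 arrays ran from 1.71 for gnl2 to 9.21 for nop53, with a median of 6.16, and 33 of them had a mean of at least 5. These levels depend on the probes and are not compared between genes. The spread over arrays was wide for most members, since the gap between the highest and lowest array was over 2 for 22 genes, the widest gap being 4.21 for utp3 and the narrowest 0.63 for NOP14.

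The median level of the 38 genes was 6.97 on both overfed HBx,Src(p53-) arrays, against 6.68 and 5.36 on the normal diet arrays of that line. In Src(p53-) it was 6.39 on the overfed and 6.10 on the high fat array, against 5.50 on the normal diet array. In HBx(p53-) it was 6.23 overfed and 5.58 on high fat, against 6.49 on normal diet. In WT it was 6.25 overfed and 5.28 on high fat, against 6.19 and 6.53 on normal diet. The low arrays thus stood under different labels: high fat in WT and HBx(p53-), normal diet in Src(p53-), and 1 of the 2 normal diet arrays of HBx,Src(p53-).

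**Figure D1:**
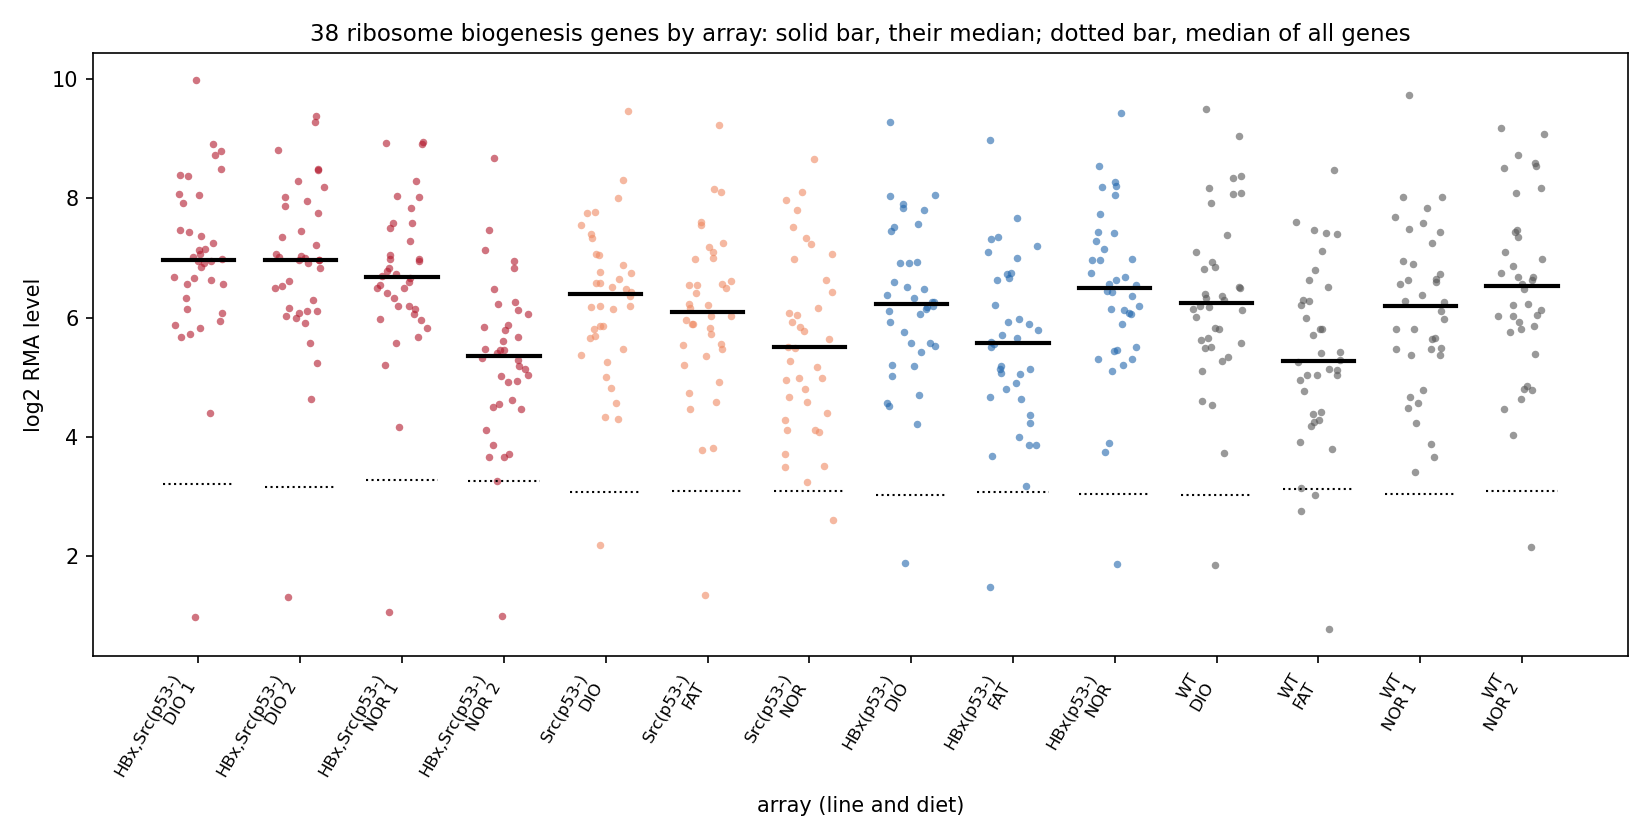
Log2 RMA level (vertical axis) of the 38 ribosome biogenesis genes on each of the 14 arrays (horizontal axis), 1 point per gene, with a solid bar at their median and a dotted bar at the median of all genes. Their median is 6.97 on the overfed HBx,Src(p53-) arrays and 5.28 on the WT high fat array, the lowest of the 14, while the median of all genes lies between 3.02 and 3.28.

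The 2 normal diet arrays of HBx,Src(p53-) differed in almost every one of these genes. Sample 2 lay below sample 1 for 37 of 38 (background, 48.7% of all genes), by a median of -1.5 against +0.01 for all genes, and 25 of 38 were at least 2-fold apart (background, 14.2% of all genes). The overfed pair of the same line was closely matched, with 19 genes higher and 19 lower in sample 2 and 0 at least 2-fold apart (7.49% of all genes were). The WT normal pair lay between, with 26 of 38 higher in sample 2 (51.8% of all genes), a median of +0.40 against +0.03 for all genes and 12 at least 2-fold apart (16.3% of all genes). The main medians that rest on these normal diet arrays are therefore also given without one of them, or as a range, and the values of single genes in that line rest on both.

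The lowest array of a gene was the WT high fat array for 12 genes, HBx,Src(p53-) normal diet sample 2 for 12 and the HBx(p53-) high fat array for 6. The highest array was an overfed HBx,Src(p53-) array for 21 genes, 12 of them on sample 1 and 9 on sample 2. Over the 14 arrays the mean pairwise Pearson r among the 38 genes was 0.53 (703 pairs, 89.8% of them above 0), against 0.004 among all genes. After the mean of each cell of genotype by normal or obesity diet was taken out, it was 0.64 among the 38 genes and 0.003 among all genes. In WT, HBx(p53-) and Src(p53-) the overfed and high fat arrays shared a cell, so the difference between these feeding methods was not taken out. These correlations are descriptions over arrays that share their normalization, and the value after this removal comes from arrays of the same cell alone. Because the genes moved together, the counts of higher or lower genes given in this text are not counts of separate observations. Between 2 fish of the same group, HBx,Src(p53-) on normal diet, 37 of 38 genes lay on the same side.

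Most members followed the common pattern closely. The correlation of a gene with the mean of the other 37 was over 0.7 for 29 genes and highest for nop2, an rRNA cytosine methyltransferase, at 0.97, rrp8, an rRNA methyltransferase, at 0.96 and rrp9, a protein of the U3 snoRNP, at 0.94. It was under 0.3 for 5 genes: nol9 at 0.26, gnl1 at 0.10, NOP14 at 0.01, gnl2 at -0.03 and utp18 at -0.06. Of these, gnl2 was dim, with a mean of 1.71. RMA can shrink differences at such levels, and gnl2 ranged from 0.78 to 3.42 over the arrays. Why it did not follow the others was not tested.

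**Figure D2:**
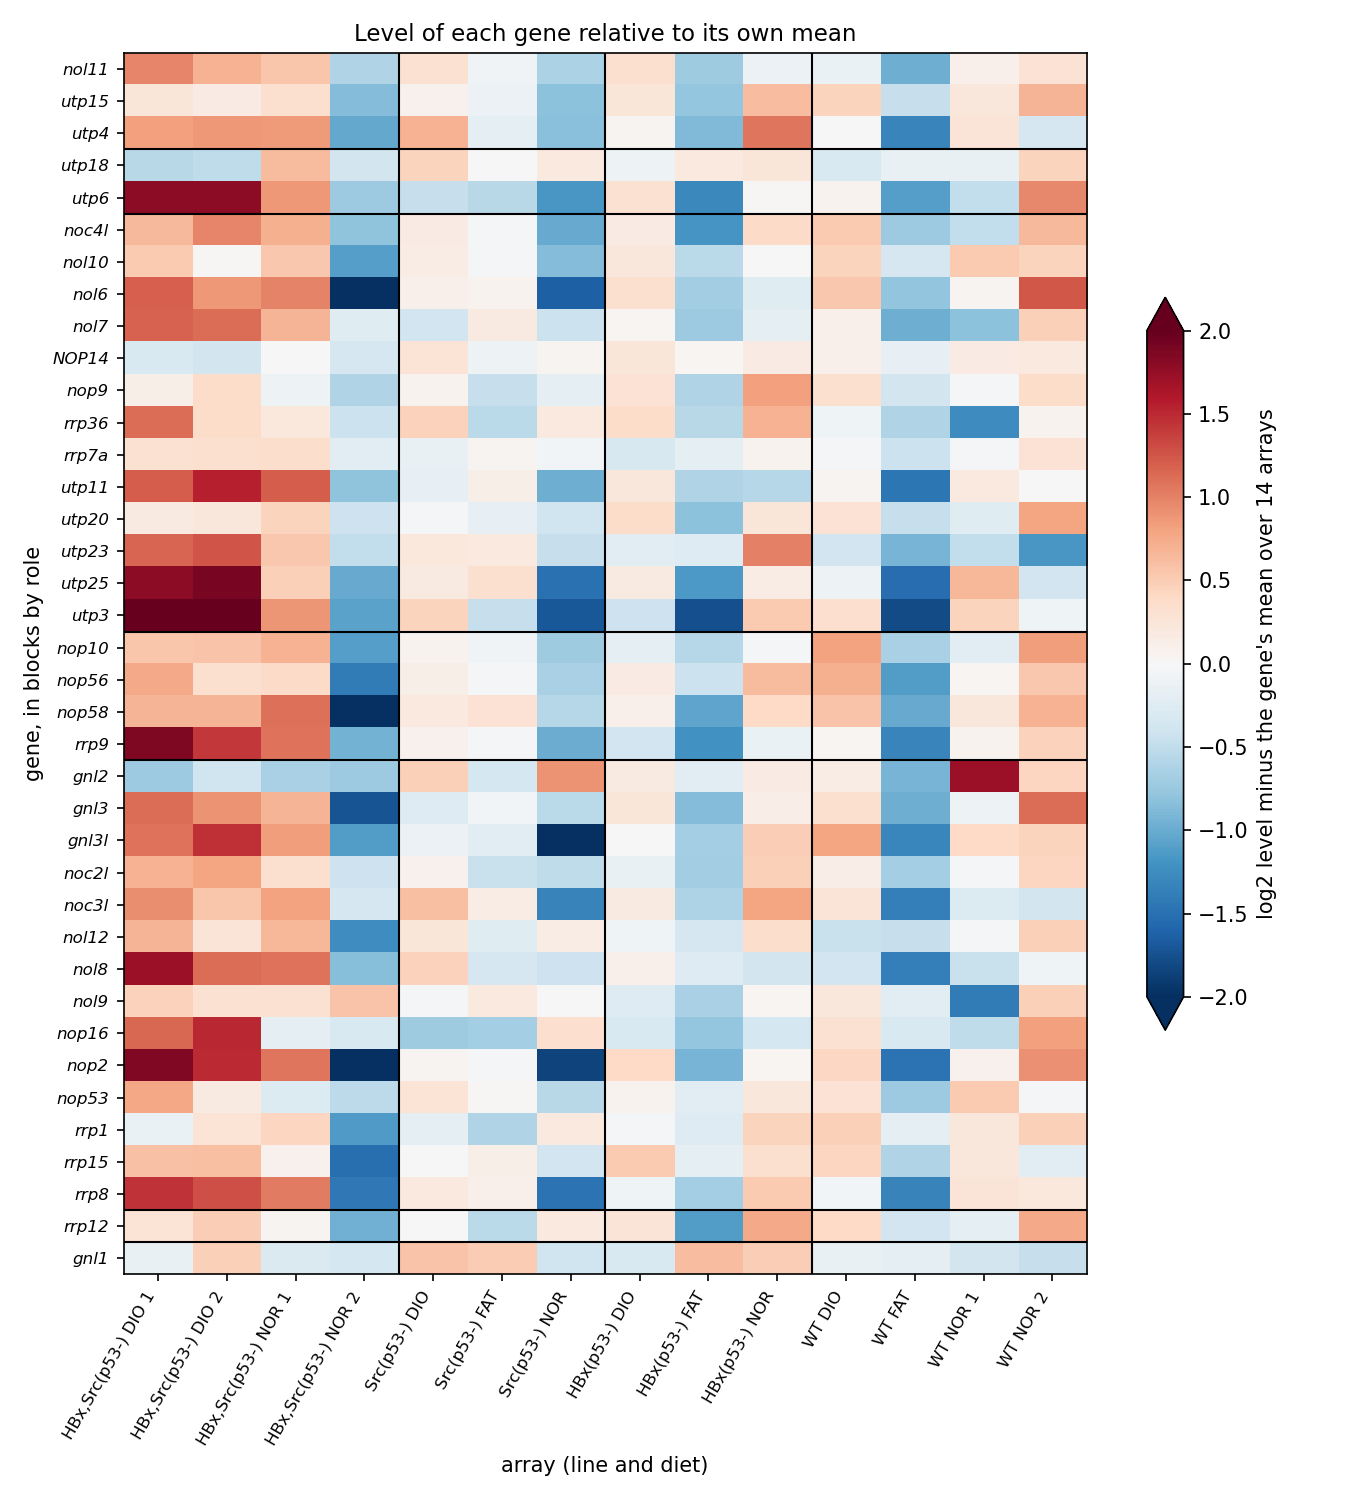
Level of each of the 38 genes (rows, in blocks by role) on each of the 14 arrays (columns) as a log2 difference from the gene's own mean, red for above and blue for below, with the colour scale ending at -2 and 2. Most rows are red on the overfed HBx,Src(p53-) arrays and blue on the WT high fat, HBx(p53-) high fat, Src(p53-) normal and HBx,Src(p53-) NOR 2 array, and the rows of utp18, NOP14, gnl2, nol9 and gnl1 do not follow this.

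The main question was how the obesity diet related to these genes in each line. In overfed HBx,Src(p53-) fish 35 of 38 genes were higher than on normal diet (background, 44.9% of all genes higher), with a median of +0.87 against -0.05 for all genes. Of the 38, 16 were at least 2-fold higher (background, 4.1% of all genes), 10 had an unadjusted p under 0.05 by limma and 0 were called (background, 0.0143% of all genes, which is 3 genes). The size of this value was set by the normal diet arrays: the median was +0.30 with 26 genes higher without normal diet sample 2, and +1.63 without normal diet sample 1. Both overfed arrays lay above both normal diet arrays for 21 of 38 genes (background, 17.5% of all genes), and above normal diet sample 1 for 22 of 38 (background, 32.1% of all genes).

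In Src(p53-) fish 31 of 38 genes were higher on the obesity diet (background, 51.9% of all genes higher), with a median of +0.68 against +0.02 for all genes. By limma 2 had an unadjusted p under 0.05 and 0 were called (background, 0% of all genes). The overfed array was above the normal diet array for 32 genes (background, 50.5%) with a median of +0.77, and the high fat array for 29 (background, 50.6%) with a median of +0.61. Both obesity arrays lay above the normal diet array for 27 of 38 genes (background, 35% of all genes). There was 1 normal diet array in this line, and it is part of every one of these values.

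In HBx(p53-) fish the members lay on the other side. On the obesity diet 35 of 38 genes were lower (background, 48.9% of all genes lower), with a median of -0.50 against +0.01 for all genes, 1 with an unadjusted p under 0.05 by limma and 0 called (background, 0%). The high fat array carried most of this: it was lower for 36 genes (background, 50% of all genes) with a median of -0.995. On it 19 genes were at least 2-fold lower, with no share of all genes beside this count. The overfed array was lower for 23 (background, 50.3%) with a median of -0.27. Both lay below the normal diet array for 22 of 38 genes (background, 32.9%).

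In WT fish 34 of 38 genes were lower on the obesity diet (background, 48.1% of all genes lower), with a median of -0.47 against +0.02 for all genes, 1 with an unadjusted p under 0.05 by limma and 0 called (background, 0%). The 2 feeding methods differed here. The WT high fat array was lower for 36 genes (background, 47.3%), with a median of -0.93. On it 17 genes were at least 2-fold lower, with no share of all genes beside this count. The overfed array was higher for 20 and lower for 18 (background, 47.6% of all genes higher), with a median of +0.02. The median of the comparison was +0.02 without the high fat array, -0.93 without the overfed array, -0.71 without normal diet sample 1 and -0.24 without normal diet sample 2. Both obesity arrays lay below both normal diet arrays for 6 of 38 genes, near the background of 13.1% of all genes.

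**Figure D3:**
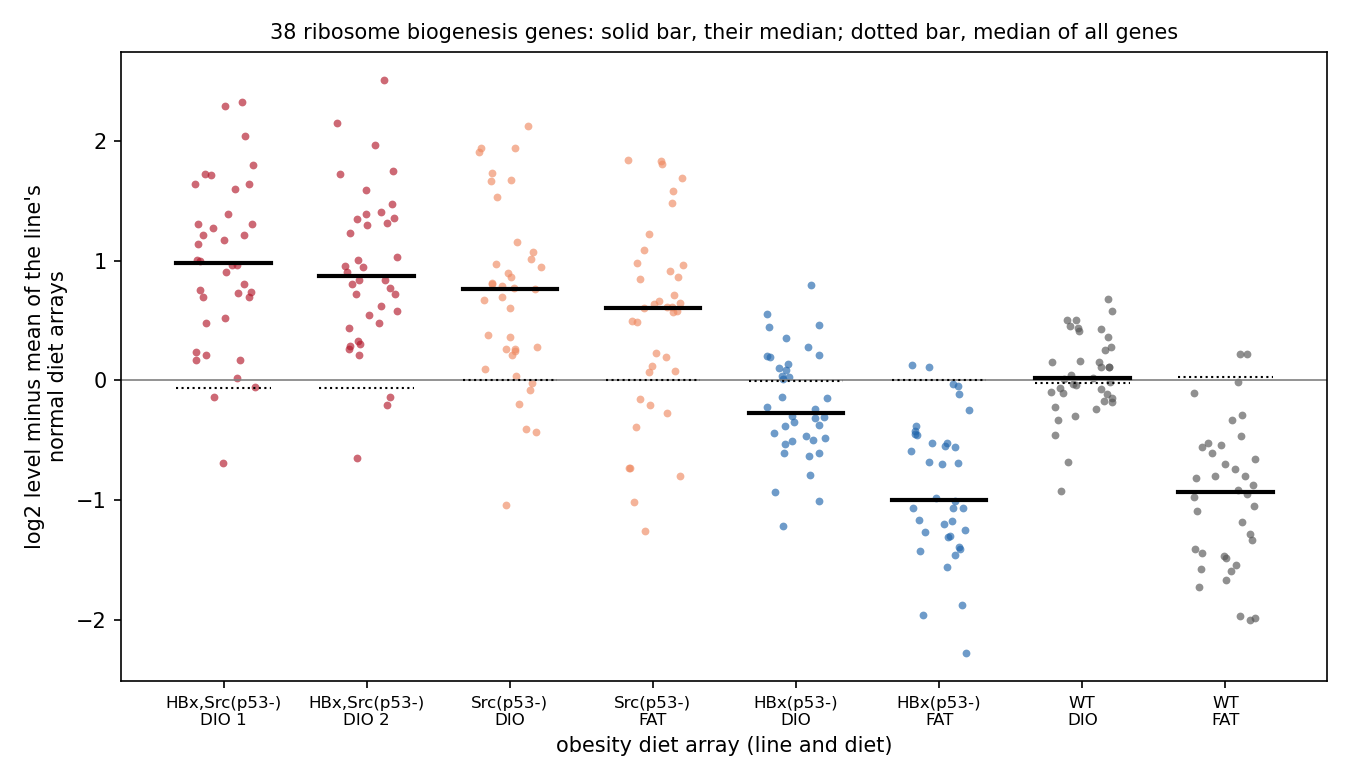
Log2 level of the 38 genes on each obesity diet array minus the mean of the normal diet arrays of the same line (vertical axis), 1 point per gene, with a solid bar at their median and a dotted bar at the median of all genes. The medians are +0.99 and +0.87 in HBx,Src(p53-), +0.77 (DIO) and +0.61 (FAT) in Src(p53-), -0.27 (DIO) and -0.995 (FAT) in HBx(p53-), and +0.02 (DIO) and -0.93 (FAT) in WT.

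Array by array, the HBx,Src(p53-) overfed samples were each higher than the line's normal diet mean for 35 genes (background, 43.9% of all genes for sample 1 and 44.1% for sample 2), with medians of +0.99 and +0.87. The diet change of the Src-carrying lines minus that of WT and HBx(p53-) was tested as 1 contrast. It was above 0 for 37 of 38 genes, all but utp18 (background, 47.1% of all genes), with a median of +1.20 against -0.03 for all genes. The genes are correlated, so this is not a count of 38 separate observations. It was at least 2-fold for 24 (background, 4.41% of all genes). By limma 0 of the 38 were called (background, 0% of all genes), the lowest adjusted p being 0.498. At an unadjusted p under 0.05 by limma there were 14, with no share of all genes beside this count. The median stayed between +0.85 and +1.49 with each array left out in turn, and was +0.90 without the high fat arrays. As the line with both transgenes had no high fat array, feeding method and line are partly mixed in this contrast.

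Every role shared in the difference. The median was +1.67 for the 4 snoRNP genes, +1.32 for the 3 UTP-A genes, +1.105 for the 14 large subunit genes and +1.04 for the 13 other small subunit genes, with all of their genes above 0. The pair of UTP-B genes was split, with utp6 at +1.82 (SE 0.79) and utp18 at -0.04 (SE 0.40). The dimmer probe set of utp6, with a mean level of 2.05, was at -0.04 (SE 0.35). The 2 genes outside these roles were rrp12, needed for export of both subunits in yeast, at +0.92 (SE 0.61), and gnl1, a GTPase of the same family as gnl2 and gnl3, at +0.76 (SE 0.36).

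Among the small subunit genes, utp3 varied most. The protein, also called SAS10, is a processome component. Its level was 7.15 and 7.36 on the overfed HBx,Src(p53-) arrays, against 5.83 and 3.87 on the normal diet arrays, and 5.38 overfed and 4.47 on high fat in Src(p53-), against 3.25. It was 4.52 overfed and 3.18 on high fat in HBx(p53-), against 5.46, and 5.27 overfed and 3.15 on high fat in WT, against 5.38 and 4.86. Its obesity arrays lay above the normal diet arrays in both Src-carrying lines and below in HBx(p53-), and in WT the overfed array fell between the normal diet pair. The difference between the lines was +3.30 (SE 0.90, limma adjusted p = 0.498).

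A similar order was seen for utp25, known in zebrafish as def, which is required for growth of the liver and other digestive organs in the embryo. It stood at 8.08 and 8.19 on the overfed HBx,Src(p53-) arrays, against 6.78 and 5.29, and at 6.48 overfed and 6.62 on high fat in Src(p53-), against 4.81. In HBx(p53-) it stood at 6.48 overfed and 5.14 on high fat, against 6.44, and in WT at 6.20 overfed and 4.77 on high fat, against 6.96 and 5.92. In HBx(p53-) and WT the high fat array was below every normal diet array and the overfed array was not. The difference was +2.71 (SE 0.73, adjusted p = 0.498), and the change in HBx,Src(p53-) +2.097 (SE 0.65, adjusted p = 0.308).

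For utp23, which acts in early small subunit processing in yeast, the HBx(p53-) normal diet array was high. It had 7.13 and 7.21 on the overfed HBx,Src(p53-) arrays, against 6.51 and 5.46, and 6.17 and 6.16 on the overfed and high fat Src(p53-) arrays, against 5.50. In HBx(p53-) it had 5.76 overfed and 5.71 on high fat, against 6.97 on normal diet, and in WT 5.58 overfed and 5.03 on high fat, against 5.47 and 4.80. The groups did not overlap in any of the 3 transgenic lines and overlapped in WT, where the change was +0.17 (SE 0.37). The change was +1.19 (SE 0.37) in HBx,Src(p53-), -1.24 (SE 0.45) in HBx(p53-), and the difference between the lines +1.46 (SE 0.41, adjusted p = 0.519).

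The UTP-A proteins are tied in human cells to transcription of the ribosomal genes as well as to processing. For utp4, the protein altered in a childhood liver cirrhosis, levels were 5.95 and 5.997 on the overfed HBx,Src(p53-) arrays, against 5.98 and 4.11, so that the overfed values lay level with normal diet sample 1. They were 5.82 and 4.93 on the overfed and high fat Src(p53-) arrays, against 4.28, and 5.18 and 4.24 in HBx(p53-), against 6.20. The WT values were 5.11 overfed and 3.81 on high fat, against 5.38 and 4.80. The difference of +2.06 (SE 0.73, adjusted p = 0.544) had its largest part in HBx(p53-), at -1.48 (SE 0.80). Of the other UTP-A genes, nol11 had a difference of +1.22 (SE 0.53) and utp15 of +1.32 (SE 0.53), and nol11 was at -0.76 (SE 0.47) on the obesity diet in WT.

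In the snoRNP group, rrp9 had the largest moderated t in the difference. Its level was 7.44 and 7.00 on the overfed HBx,Src(p53-) arrays, against 6.66 and 4.63, and 5.66 and 5.55 on the overfed and high fat Src(p53-) arrays, against 4.58. It was 5.201 overfed and 4.37 on high fat in HBx(p53-), against 5.44, and 5.62 overfed and 4.25 on high fat in WT, against 5.65 and 6.04. All 4 lines had groups that did not overlap, higher on the obesity diet in the Src-carrying lines and lower in the other pair. The gap in WT was narrow, at 5.62 overfed against 5.65 on a normal diet array. Taken singly, these patterns were met by 17.5% of all genes in HBx,Src(p53-), 35% in Src(p53-), 32.9% in HBx(p53-) and 13.1% in WT. The difference was +2.08 (SE 0.73, adjusted p = 0.544). The box C/D scaffold proteins nop56 and nop58 had differences of +1.50 (SE 0.74) and +1.84 (SE 1.06), and nop10, a small protein of the H/ACA snoRNPs and of telomerase, of +1.01 (SE 0.71).

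The large subunit genes with the largest moderated t in the difference were rrp8, gnl3l and noc2l. For rrp8 the levels were 7.92 and 7.75 on the overfed HBx,Src(p53-) arrays, against 7.50 and 5.04, and 6.65 and 6.57 on the overfed and high fat Src(p53-) arrays, against 4.98. They were 6.38 and 5.79 in HBx(p53-), against 6.98, and 6.40 and 5.12 in WT, against 6.73 and 6.68. The groups did not overlap in any line, and the difference was +2.51 (SE 0.77, adjusted p = 0.53).

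The nucleolar GTPase gnl3l, a relative of nucleostemin, had 6.66 and 7.04 on the overfed HBx,Src(p53-) arrays, against 6.42 and 4.47, and 5.47 and 5.36 on the overfed and high fat Src(p53-) arrays, against 3.52. It had 5.58 and 4.90 in HBx(p53-), against 6.08, and 6.37 and 4.28 in WT, against 5.98 and 6.03, so that overfed WT was above and high fat WT below the normal diet pair. Its difference was +2.41 (SE 0.80), that of noc2l, an early large subunit factor, +1.25 (SE 0.43), and that of noc3l +1.74 (SE 0.62), each with an adjusted p of 0.53 to 0.544. The dimmer probe set of noc2l, with a mean of 2.18, was at +0.0065 (SE 0.41). That of noc3l, with a mean of 2.97, was at +0.67 (SE 0.38). Nucleostemin itself, gnl3, was at +1.60 (SE 0.86) and nop2 at +2.69 (SE 1.06). In Src(p53-), noc3l had 6.36 and 5.90 on the overfed and high fat arrays, against 4.41, a change of +1.72 (SE 0.68, adjusted p = 0.976).

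The lowest adjusted p of any of the 38 genes was that of nop16 in HBx,Src(p53-), 0.25. This large subunit factor stood at 8.92 and 9.28 on the overfed arrays, against 7.59 and 7.46 on normal diet, a change of +1.57 (SE 0.42). Its normal diet pair did not show the gap seen for most of the 38 genes. In Src(p53-) nop16 went the other way, with 7.07 overfed and 7.10 on high fat, against 8.11, a change of -1.03 (SE 0.51), so that its difference between the lines was +0.44 (SE 0.47). The dimmer probe set of nop16 had a change of +0.40 (SE 0.38) in HBx,Src(p53-) and -0.26 (SE 0.47) in Src(p53-).

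**Figure D4:**
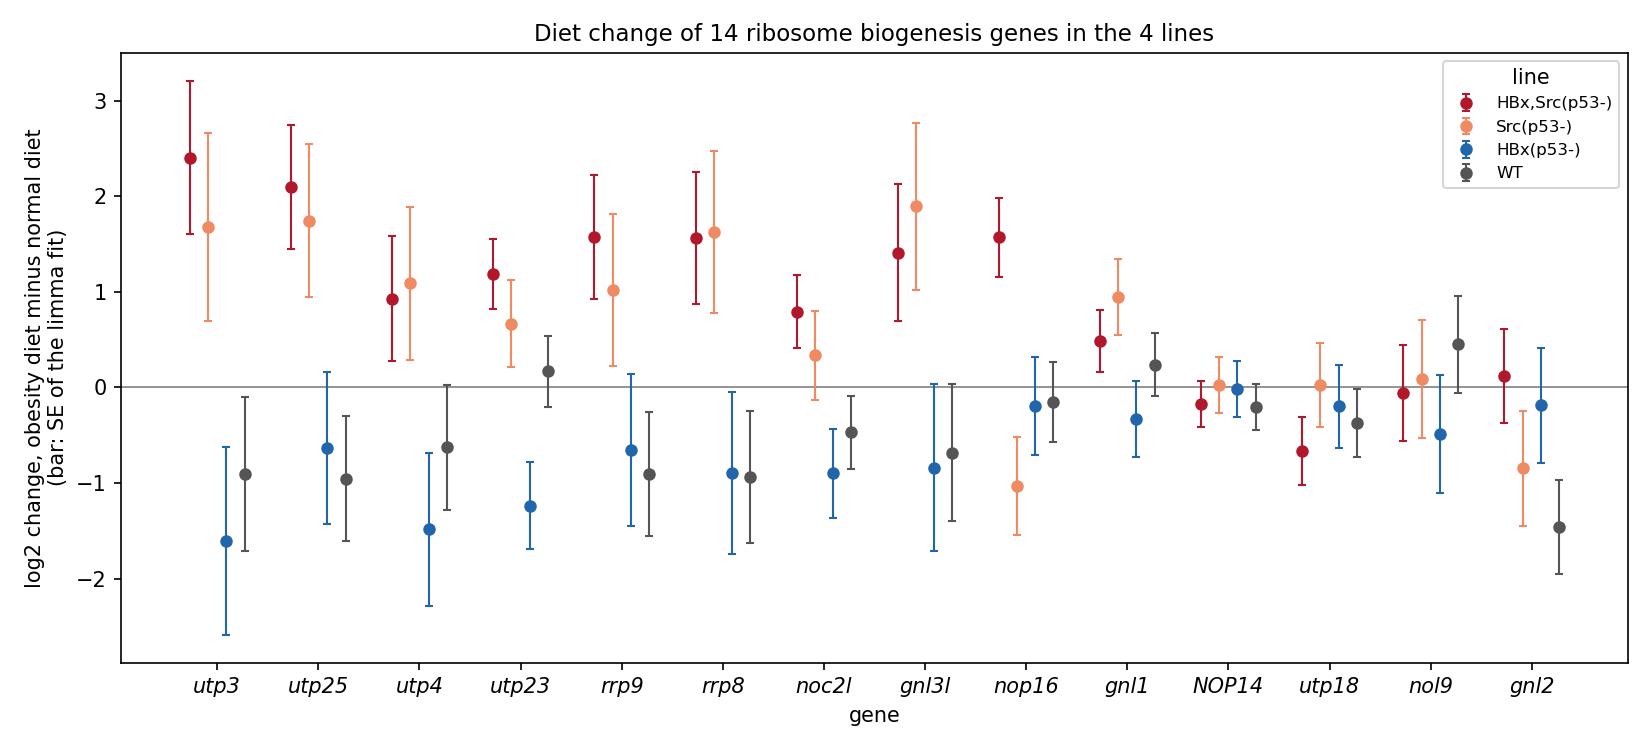
Log2 change on the obesity diet, obesity minus normal (vertical axis, bar for the SE of the limma fit), of 14 of the genes in HBx,Src(p53-), Src(p53-), HBx(p53-) and WT fish. From utp3 to gnl3l the 2 Src-carrying lines lie above 0 and HBx(p53-) below, with WT below for all but utp23, while NOP14, utp18, nol9 and gnl2 show no such order and nop16 lies above 0 in HBx,Src(p53-) and below in Src(p53-).

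Several members varied little or differently. NOP14, a processome protein, ranged from 6.92 to 7.55 over all arrays, with a difference between the lines of +0.03 (SE 0.27). For utp18 the overfed HBx,Src(p53-) arrays, at 5.87 and 5.92, were the lowest of the 14, against 7.06 and 6.07 on normal diet, a change of -0.67 (SE 0.36). The difference for utp18 was -0.04, and above 0 after centring the arrays on their medians (+0.02) or normalizing again (+0.03), so it has no settled sign. For gnl1 the Src(p53-) obesity arrays had 7.05 overfed and 6.99 on high fat, against 6.08, a change of +0.94 (SE 0.40), and in HBx(p53-) the high fat array was high, 7.10, beside 6.19 overfed and 6.97 on normal diet. By contrast, the large subunit assembly factor nop53 followed the common pattern, with a correlation of 0.74 with the mean of the other members. It had 9.98 and 9.39 on the overfed HBx,Src(p53-) arrays, against 8.93 and 8.68, and a difference of +1.17 (SE 0.42).

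With the lines on a normal diet, the same WT arrays served as the control of each comparison, so the 3 comparisons are not independent. In HBx,Src(p53-) 30 of 38 genes were lower than in WT (background, 43.5% of all genes lower), with a median of -0.37 against +0.07 for all genes. The 2 transgenic arrays gave opposite answers: the median was +0.38 without sample 2 and -0.97 without sample 1. In Src(p53-) 32 of 38 were lower (background, 49.9% of all genes), with a median of -0.80 against 0.00 for all genes, and 16 were at least 2-fold lower (background, 3.74%), on 1 array. In HBx(p53-) 20 were higher and 18 lower (background, 48.1% of all genes higher), with a median of +0.04. None of the 38 was called in the 3 comparisons (background, 0% of all genes in each), where 2 in HBx,Src(p53-), 1 in Src(p53-) and 2 in HBx(p53-) had an unadjusted p under 0.05 by limma.

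The members named in these comparisons were few. For utp23 the HBx(p53-) normal diet array had 6.97, against 5.47 and 4.80 in WT, a difference of +1.83 (SE 0.45, adjusted p = 0.47), and the HBx,Src(p53-) arrays had 6.51 and 5.46, a difference of +0.85 (SE 0.37, adjusted p = 0.577). The dim gnl2, a GTPase of late nuclear large subunit maturation, had 1.07 and 0.99 in HBx,Src(p53-), against 3.42 and 2.15 in WT, a difference of -1.75 (SE 0.49, adjusted p = 0.351). On the obesity diet gnl2 had 1.86 overfed and 0.78 on high fat in WT, a change of -1.46 (SE 0.49). For nol9, a kinase acting on the ends of precursor RNA, HBx,Src(p53-) had 5.58 and 5.85, against 3.89 and 5.76 in WT. That difference of +0.89 (SE 0.51) was -0.05 without WT normal diet sample 1.

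The feeding methods were set against each other over the genotypes in a model with genotype and diet as additive terms, whose comparisons share arrays. Such a model takes the diet change to be the same in every line, which the values by line above do not show. On overfeeding 34 of 38 genes were higher than on normal diet (background, 46.4% of all genes higher), with a median of +0.45 against -0.02 for all genes and 1 at an unadjusted p under 0.05. On high fat 36 of 38 were lower than on normal diet (background, 49.6% of all genes lower), with a median of -0.35 against 0.00 for all genes and 3 at an unadjusted p under 0.05. These pooled directions did not hold in each line. The Src(p53-) high fat array was higher than normal diet for 29 genes, with a median of +0.61. The HBx(p53-) overfed array was lower for 23, with a median of -0.27, and the WT overfed median was +0.02. High fat against overfed gave 36 of 38 lower (background, 46.6%), with a median of -0.86 against +0.03 for all genes, 13 at least 2-fold lower (background, 1.35%) and 11 with an unadjusted p under 0.05. None of the 38 was called in any of the 3 (background, 0% of all genes in each), the lowest adjusted p being 0.68. The overfed median was +0.20 without HBx,Src(p53-) normal diet sample 2 and +0.604 without sample 1. The high fat median against normal diet was -0.08 without WT high fat, -0.22 without WT normal diet sample 2, -0.22 without HBx(p53-) normal diet, -0.61 without Src(p53-) normal diet and -0.74 without Src(p53-) high fat.

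The median of high fat against overfeeding was -1.11 to -0.59 when each array was left out. Within lines, the high fat array lay below the overfed array for 37 of 38 genes in WT (45.9% of all genes), with a median of -1.03 against +0.05 for all genes. It did so for 35 in HBx(p53-) (49.9% of all genes), with a median of -0.76, and for 29 in Src(p53-) (49.7% of all genes), with a median of -0.16, the median of all genes being 0.00 in both. It was below in all 3 lines for 27 of 38 genes (background, 12.6% of all genes). In the additive model over genotypes the values furthest below 0 were those of utp3, at -1.88 (SE 0.71), nop2 at -1.43 (SE 0.78), utp6 at -1.26 (SE 0.54) and utp25 at -1.24 (SE 0.65), and for utp25 the high fat array of Src(p53-) was not below the overfed one. For nop9, a small subunit factor, the value in this model was -0.83 (SE 0.26) and for rrp12 -1.097 (SE 0.36), each with an adjusted p of 0.68. In HBx(p53-), nop9 had 4.57 overfed and 3.68 on high fat, against 5.10 on normal diet, and rrp12 had 8.04 and 6.67, against 8.55.

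A wider set of 146 measured genes ran in the same direction in each line. It joined 4 lists of other ribosome production genes with the Myc family list described below, which also holds antagonists of Myc. The counts and medians by line therefore include the Myc family genes, and were not taken without them. On the obesity diet 125 of 146 were higher in HBx,Src(p53-) (median +0.81, background 44.9% of all genes higher) and 94 in Src(p53-) (median +0.17, background 51.9%). In HBx(p53-) 121 were lower (median -0.41, background 48.9% of all genes lower) and in WT 120 (median -0.34, background 48.1%). The contrast between the lines was above 0 for 17 of 18 genes of RNA polymerase I and its factors (median +0.90), 39 of 41 other processome genes (median +1.00), 44 of 50 other large subunit genes (median +1.02) and 23 of 25 genes of RNase MRP and the exosome (median +0.78). The background for each was 47.1% of all genes above 0. In each of these 4 lists 0 genes were called in the contrast. Examples were the helicase ddx49 at +3.14 (SE 0.74), the kinase riok2 at +2.25 (SE 0.63), rbm28 at +2.30 (SE 0.58), wdr74 at +2.11 (SE 0.46), polr1e, a polymerase I subunit, at +1.60 (SE 0.61) and polr2k, a subunit shared by the polymerases, at +1.27 (SE 0.43).

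The single called gene of ribosome production was pop5, a protein of RNase MRP and RNase P, which rose in overfed HBx,Src(p53-) fish. It had 5.07 and 5.56 on the overfed arrays, against 2.65 and 2.68 on normal diet, a change of +2.65 (SE 0.24, limma adjusted p = 0.0276). On the other 10 arrays it lay between 2.40 and 3.11, and both normal diet arrays of HBx,Src(p53-) were alike, unlike those of the 38 genes. Its partner pop4 had 7.21 and 7.64, against 6.09 and 4.89, a change of +1.93 (SE 0.43, adjusted p = 0.209).

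The Myc transcription factors drive ribosome production genes in many cells. Of 12 genes of the Myc family, a list that also holds antagonists of Myc and dim genes such as myca (mean 1.79), 6 were above and 6 below 0 in the contrast between the lines, with a median of 0.00 and 0 called. In that contrast mycb was at +1.85 (SE 1.64) and mych at +1.15 (SE 1.35), on the same side as the median of the 38 genes, with adjusted p = 0.844 and 0.895 in limma. The antagonists mxd4 and mnta were at -1.80 (SE 0.97) and +1.56 (SE 0.77).

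By array, mycb had 5.35 and 8.83 on the overfed HBx,Src(p53-) arrays, against 10.31 and 8.26 on normal diet, and 5.03 overfed and 8.65 on high fat in Src(p53-), against 6.03. It had 5.71 overfed and 3.97 on high fat in HBx(p53-), against 8.05, and 6.58 overfed and 4.25 on high fat in WT, against 7.87 and 6.74. The high fat arrays of WT and HBx(p53-) had the lowest mycb levels of the 14 arrays. The overfed HBx,Src(p53-) arrays were not both high for it, and its change in that line was -2.20 (SE 1.47). The change of mych there was -1.36 (SE 1.21), and the median change of the 38 genes was +0.87. The arrays measure mRNA of the Myc factors and not their activity, and their part in the result was not tested.

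Markers of other cell types differed between arrays too. The mean of 21 germ cell markers was 3.33 and 2.82 on the overfed HBx,Src(p53-) arrays, against 3.38 and 2.12 on normal diet, so that the array of that line with the lowest levels of the 38 genes also had the lowest germ cell mean. The list had 21 of its 23 genes measured, and they did not all move alike. The egg coat gene zp3b was 5.75 and 5.17 on the overfed arrays, against 5.94 and 3.01 on normal diet, and 1.61 to 3.72 on the arrays of the other lines. The genes zp2.1, zp2.2, ca15b, h1m, buc and dazl were likewise lower on normal diet sample 2 than on the other HBx,Src(p53-) arrays. Overfed levels of zp2.1 were 5.52 and 5.25, against 6.45 and 3.35 on normal diet. Those of ca15b were 5.54 and 5.03, against 5.48 and 2.00. Other genes of the list stayed dim in HBx,Src(p53-). On the overfed arrays ddx4 was 2.57 and 2.31, against 2.66 and 2.15 on normal diet. In the same order sycp3 was 1.92 and 2.48, against 1.81 and 1.92, and figla 1.37 and 1.22, against 1.00 and 1.08. Over the other lines the germ cell mean was 1.86 to 2.44. On the WT high fat array, where the 38 genes were low, it was 1.86, against 1.89 overfed and 2.06 and 2.44 on normal diet. The 38 genes were also low on the HBx(p53-) high fat and Src(p53-) normal diet arrays, which had the highest germ cell mean of their line. These were 1.94 in HBx(p53-), against 1.86 overfed and 1.92 on normal diet, and 2.02 in Src(p53-), against 1.95 overfed and 1.90 on high fat. With the germ cell mean as a covariate the median was +0.60 for the HBx,Src(p53-) diet change, -0.10 for that of WT and +0.95 for the contrast between the lines. Its part in the result was not tested further.

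Exocrine pancreas markers, 17 genes, averaged 5.51 to 6.74 in HBx,Src(p53-), 4.16 to 5.53 in Src(p53-), 5.71 to 7.75 in HBx(p53-) and 3.92 to 4.96 in WT. The value was highest on the HBx(p53-) high fat array, where the 38 genes were low, and lowest in Src(p53-) on the normal diet array, where they were also low. Leukocyte markers, 21 genes, averaged 3.77 to 4.09 in HBx,Src(p53-), 3.64 to 3.98 in Src(p53-), 3.39 to 3.78 in HBx(p53-) and 3.05 to 3.53 in WT. With the pancreas covariate the Src(p53-) diet median was +1.19. The direction of the 4 diet medians and of the contrast was the same with each of these 3 covariates, and the part of the other cell types in the result was not tested.

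**Figure D5:**
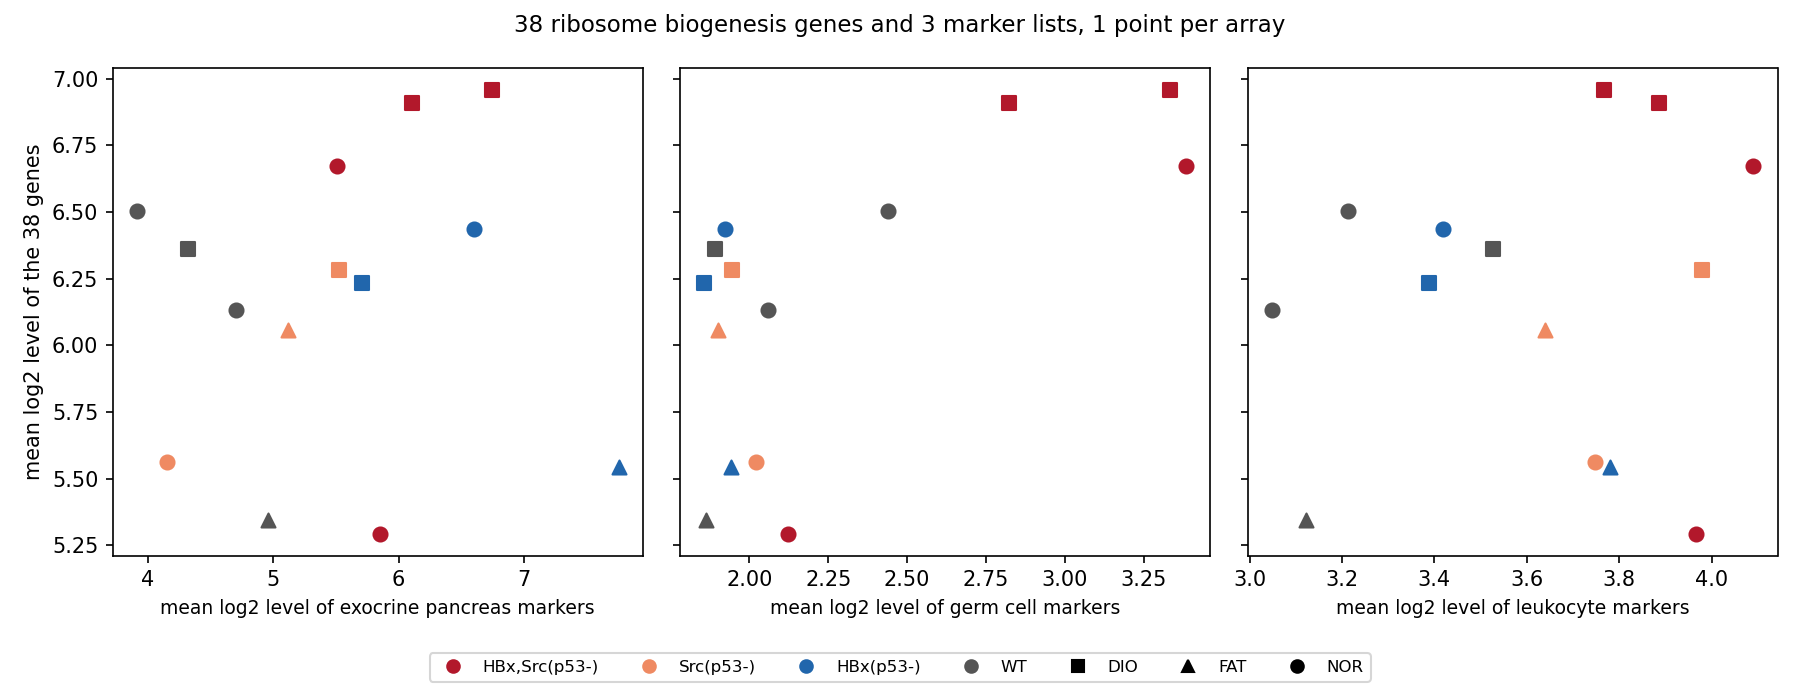
Mean log2 level of the 38 genes (vertical axis) against the mean log2 level of exocrine pancreas, germ cell and leukocyte markers (horizontal axes), 1 point per array, coloured by line and shaped by diet. The HBx,Src(p53-) arrays with germ cell means of 3.38, 3.33 and 2.82 have the highest levels of the 38 genes, and the fourth, at 2.12, the lowest.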

How the data were processed

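The authors deposited log2 expression values of 75212 probe sets on 14 liver arrays. Per the labels and the study's methods, they were made with RMA in the oligo package, whose version is not given in the sources used here, by background correction, quantile normalization and median polish. Because RMA forces a shared distribution on the arrays, a shift of total RNA in the cell would not show, and probes of close paralogs may share signal. Arrays have no read depth, and their number limits the precision. No scan date was found in the labels or the methods, so no batch was tested.

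A platform annotation gave 30358 probe sets 1 symbol and 1015 several. Those with several, 1 of them nol10 with another gene, were left out. Symbols were updated through Entrez identifiers to RefSeq (assembly GRCz12tu) for 19483 of 20908 genes, and 1425, NOP14 among them, kept the annotation's own. Symbols that differed only in case were merged. No filter on low values was used, and 6 of the 38 genes had several probe sets.

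With limma 3.58.1 (R 4.3.3), 8 cell means (genotype by normal or obesity diet, 6 residual degrees of freedom) gave the diet and genotype comparisons, so that a group of 1 array is assumed to vary like the others, and a model with additive terms for genotype and feeding method (8 residual degrees) gave the feeding methods. P-values were adjusted by Benjamini and Hochberg over all 20908 genes, with a threshold of 0.05, and the script was tested on simulated data. Named genes were the 8 members with the largest moderated t in the difference between the lines, the 3 largest in each diet comparison within a line and in HBx,Src(p53-) against WT, the member with the highest mean in each role, and for each pathway list the 2 with the largest moderated t and any called gene. The genes nop2, nop56, nop58, gnl3, utp6, mycb, mych and myca were named in addition after their values were seen. The members and lists were chosen with earlier results of these data known. Alternatives were the mean of all probe sets, a minimum mean of 3, other normalizations, a robust trend, 11 cell means, marker covariates, a wider naming rule, each array left out, a replicate block, and, chosen after seeing the data, leaving out the high fat arrays. No sequences were used here.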

Additional observations from a re-analysis of the deposited data

Results flagged for a closer look

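Every obesity diet array of the Src-carrying lines had a positive median over the 38 genes and every one of HBx(p53-) a negative one. The median diet change was 1.18 higher in Src(p53-) than in HBx(p53-), and 1.37 higher in HBx,Src(p53-) than in HBx(p53-). These 2 differences between pairs of lines were not tested, and each rests on 1 normal diet array of HBx(p53-). The difference of 1.18 also rests on 1 normal diet array of Src(p53-).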

How the results depend on the processing

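Under every alternative run, 0 of the 38 genes were called in any comparison. The medians of the Src(p53-) and HBx(p53-) diet changes, the contrast between the lines, Src(p53-) against WT and the 3 comparisons of feeding methods kept their sign under all alternatives. The WT diet median turned to +0.0204 without the high fat arrays, and ranged from -0.93 to +0.0204 with 1 array left out. The HBx,Src(p53-) diet median ranged from +0.30 to +1.63 in this way, and the genes called over the whole array were 24 without normal diet sample 1, against 3 with all arrays. HBx(p53-) against WT turned to -0.0083 when normalized again and -0.15 with the leukocyte covariate, was +1.34 with the pancreas covariate, and ranged from -0.16 to +0.23 with 1 array left out. HBx,Src(p53-) against WT was +0.23 with the pancreas and -1.12 with the leukocyte covariate, and ranged from -0.97 to +0.38. In the contrast between the lines, utp18 was +0.0301 when normalized again, +0.0179 centred, +0.18 with the leukocyte covariate, +0.19 without the high fat arrays and -0.29 to +0.21 with 1 array left out, and NOP14 was -0.0416 with the germ cell covariate and -0.0574 to +0.13. For nol9 in HBx,Src(p53-) against WT the range was -0.0489 to +1.83. The causes were not tested.

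The sample numbers shared by 3 groups of 2 were not used to pair the arrays in the main model. Deviations of same-numbered arrays correlated at -0.23 to 0.13. With 2 arrays per group, these values cannot exclude a batch or handling shared by same-numbered arrays. A replicate block is balanced within each cell, so it could not alter the log2 changes. The medians of +0.87 in the HBx,Src(p53-) diet comparison and -0.37 in HBx,Src(p53-) against WT were thus fixed in advance. With this block 6 genes in place of 3 were called over the whole array in the diet comparison. The SD between replicate arrays of the members' median was 0.56 over the 3 pairs.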
